A study of Mus musculus with 1814 samples.

Results

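Of 677 kept Dec+ germinal center B cells from experiments 3 and 4 of the series, 625 carried mainly IgG1 or IgM heavy chain RNA. Of these, 496 were of IgG1 class (73.3% of the kept cells) and the rest of IgM class (19.1%). The series holds 1814 wells in all, each with the RNA of 1 sorted mouse cell, read with the SmartSeq2 protocol, which covers whole transcripts and marks no single molecules. A cell was put in the class of the constant region gene that held at least 60% of its summed counts of Ighm, Ighg1, Ighg2b, Ighg2c and Ighg3, if that sum was at least 10. The values of these 5 genes therefore chose the members and are given as a description only. The cells came from lymph nodes of mice and were sorted as Dec+, a status the labels do not expand, at 12, 30, 46 or 60 h. Each was marked as dark zone, light zone or neither, and those marks go with the staining for CXCR4 and CD83. No genotype, strain, age or animal is named for experiments 3 and 4, and both classes came from the same plates and harvests. For comparison, Dec+ cells of experiment 1 (12 and 30 h, no genotype named) and of experiment 5 (genotypes WT, KO and TA, no time named) were classed the same way. A harvest is the cells of 1 experiment at 1 time. Whether harvests hold separate animals is not stated, so p values measure the spread between harvests, which may in part be technical.

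An antibody's heavy chain joins a variable region, which binds antigen, to a constant region, which sets the antibody class. A naive B cell transcribes the first constant genes of the locus, Ighm and, by alternative splicing, Ighd. Class switch recombination deletes the DNA between switch regions and brings another constant gene, such as Ighg1, behind the same variable region. Interleukin 4 is known to direct mouse B cells to IgG1. IgM and IgG1 receptors differ in their cytoplasmic tails, and both class types take part in germinal centers, where cells divide and mutate in the dark zone and are selected by T cell help in the light zone.

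The genes that set the class lie on the minus strand of chromosome 12 (GRCm38, GENCODE M21). Ighm spans 113418558 to 113422730 and Ighg1 spans 113325240 to 113330523. The first 90 coding bases of each constant region, all within the first constant exon, are shown because the assignment of a read to Ighg1 or to another gamma gene rests on the differences between them. Capitals mark bases at which a gamma gene differs from Ighg1, and the Ighm sequence, which was not aligned, is in lower case throughout.
Ighm (chr12:113422641-113422730): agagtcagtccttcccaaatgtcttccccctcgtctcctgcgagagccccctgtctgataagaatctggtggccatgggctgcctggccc
Ighg1 (chr12:113330434-113330523): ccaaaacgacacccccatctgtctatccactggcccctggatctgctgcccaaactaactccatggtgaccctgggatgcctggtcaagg
Ighg2b (chr12:113307844-113307933): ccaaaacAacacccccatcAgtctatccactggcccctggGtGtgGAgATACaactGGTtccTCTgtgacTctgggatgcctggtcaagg
Ighg2c (chr12:113288843-113288932): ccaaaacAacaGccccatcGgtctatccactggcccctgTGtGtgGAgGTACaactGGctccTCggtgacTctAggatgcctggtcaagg
Ighg3 (chr12:113361143-113361232): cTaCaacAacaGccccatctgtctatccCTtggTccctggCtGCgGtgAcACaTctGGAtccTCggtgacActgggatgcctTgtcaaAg
Within this stretch 73 of 90 bases of Ighg2b, 72 of Ighg2c and 67 of Ighg3 equal those of Ighg1. Over the whole annotated transcripts, 99.6% of the 2542 distinct 50-base words of Ighg1 and 100% of the 1837 of Ighm occur in none of the other 4 genes. Ighg1 shares no 50-base word with Ighm, and it shares 10 with Ighg2b and 10 with Ighg3. The class of a cell thus compares genes that reads of that length can tell apart over nearly all of their length.

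The counts of Ighm and Ighg1 in single cells follow as a description, since the rule used them and set mixed cells apart. In experiment 3 the 326 IgG1 class cells had from 12 to 105393 Ighg1 counts with a median of 698.5, and 26 of them (7.98%) had any count of Ighm. In experiment 4 the 170 IgG1 class cells had a median of 773 Ighg1 counts, and 35 (20.6%) had any Ighm. The IgM class cells of experiment 4 (28, 35, 52 and 1 at 12, 30, 46 and 60 h) had from 59 to 5336 Ighm counts with a median of 1364, and 37 (31.9%) had any Ighg1. Most cells thus held RNA of a single class gene. The 13 IgM class cells of experiment 3 were different: 11 held Ighg1 counts, and the median share of Ighm in their class counts was 86.9%. Over both experiments 422 of 496 IgG1 class cells (85.1%) and 70 IgM class cells (54.3%) had more than 99% of their class counts in the class gene.

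**Figure D1:**
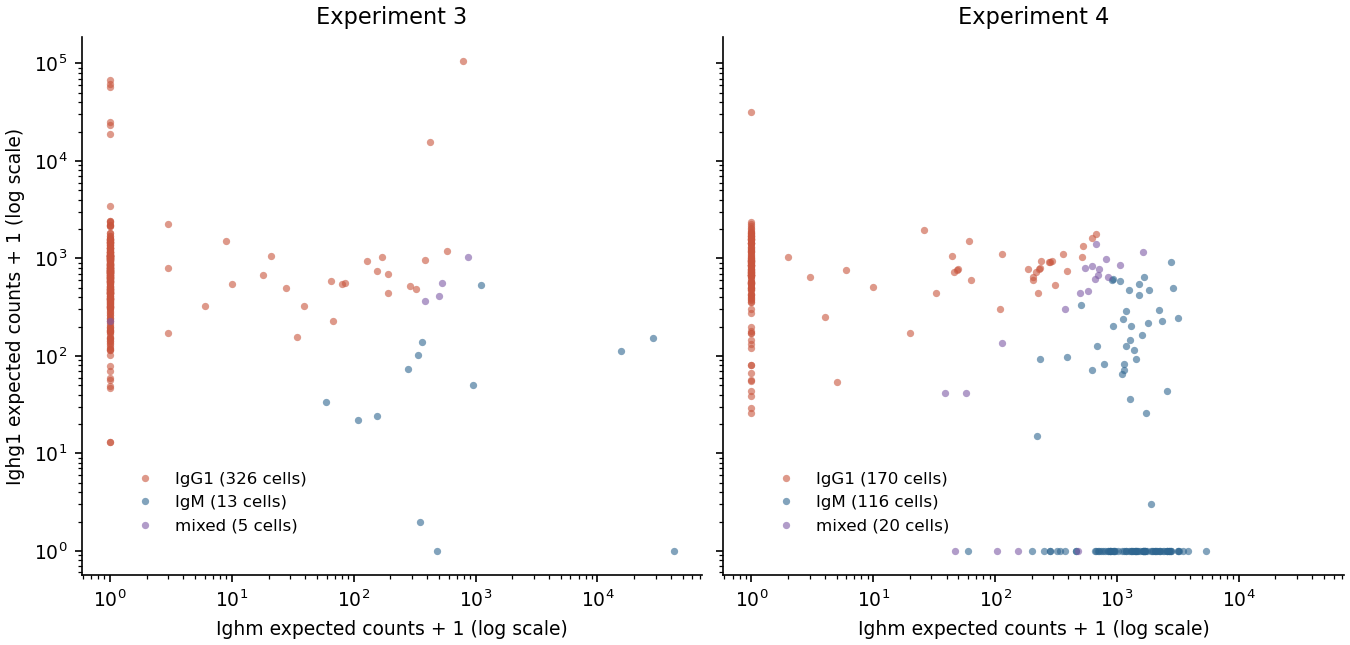
Expected counts of Ighm (x axis) and Ighg1 (y axis) in each cell of experiments 3 and 4, both plus 1 on log scales, with a point per cell coloured by class. The classes lie along the axes, and in experiment 3 the 13 IgM class cells mostly also hold Ighg1 counts, as 11 of them do.

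The members nearest the threshold had 60.1% (IgG1 class) and 60.2% (IgM class) of the class counts in their gene. The nearest cells outside had 59.04% Ighg1 and 58.6% Ighm. Only 8 IgG1 and 6 IgM class cells lay under 70%. The remaining 52 cells comprised 11 of IgG2b class, 8 of IgG3 class, 25 mixed cells and 8 with fewer than 10 class counts. No cell was of IgG2c class, which allows a share of up to 0.443%. In experiment 3 the table used holds no Ighg2c or Ighg3 count in IgG1 or IgM class cells. The tables per plate hold each of the 2 genes in 2 cells there, and with them no class changed. Of the mixed cells 20 held mainly Ighm and Ighg1 together. Counts were not divided by transcript length, so the threshold compares reads, not molecules.

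The class makeup differed widely between experiments and times. In experiment 3 the IgG1 class held 88 of 90 IgG1 or IgM class cells at 12 h, 73 of 80 at 30 h, 79 of 83 at 46 h and 86 of 86 at 60 h. These shares were 97.8%, 91.2%, 95.2% and 100%, the last with no IgM class cell, which allows an IgM share of up to 3.49%. In experiment 4 the IgG1 class held 43 of 71 cells at 12 h, 43 of 78 at 30 h, 9 of 61 at 46 h and 75 of 76 at 60 h. These shares were 60.6% (95% exact binomial interval 48.3 to 72), 55.1% (43.4 to 66.4), 14.8% (6.98 to 26.2) and 98.7% (92.9 to 100). IgM class cells were thus the majority in 1 of 8 harvests, experiment 4 at 46 h, and a single IgM class cell was found at 60 h of the same experiment. The intervals take cells as independent and cover counting error alone.

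The harvest of 46 h in experiment 4 had few IgG1 class cells on each of its 4 plates, with 5 of 17, 2 of 18, 2 of 21 and 0 of 5 cells. At 60 h the same plates had 16 of 16, 20 of 21, 22 of 22 and 17 of 17. On each plate a time occupied its own rows of wells, and no animal is named. Time, the place on the plate and the animals harvested at that time therefore cannot be told apart. The IgG1 share showed no steady change with time: its mean slope over the 2 experiments was 0.224 percentage points per h (exact two-sided permutation test within experiments, p = 0.849). The slope was 0.0572 in experiment 3 and 0.391 in experiment 4, and without the 60 h harvest of experiment 4 the mean slope was -0.634 (p = 0.333, exact).

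In experiment 4 the dark zone held a larger share of IgM class cells than the light zone at the 3 times with many IgM class cells. At 12 h the IgG1 class made up 26 of 48 dark zone cells (54.2%) and 17 of 23 light zone cells (73.9%). At 30 h it made up 27 of 58 dark zone cells (46.6%) and 16 of 20 light zone cells (80%). At 46 h it made up 5 of 46 dark zone cells (10.9%) and 4 of 15 light zone cells (26.7%). The differences, dark minus light zone, were -19.7, -33.4 and -15.8 percentage points, and at 60 h the difference was -1.41. Experiment 3 did not share this order: its differences were -0.103, 6.74, 4.81 and 0 percentage points at 12, 30, 46 and 60 h.

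Over the 8 harvests the mean difference was -7.37 ± 14.1 percentage points (SD, n = 8), with 5 harvests below 0, 2 above and 1 at 0. It did not pass (exact two-sided sign-flip permutation test, p = 0.203, where 0.00781 is the smallest p possible). Without the 30 h harvest of experiment 4 the mean was -3.64 (p = 0.406, exact). Within plates of experiment 4, 8 groups of 1 plate at 1 time (12, 30 or 46 h) had at least 3 classed cells in each zone, and in 7 of them the IgG1 share was lower in the dark zone; the same 4 plates recur among these groups. Many harvests hold almost no IgM class cells, so that no difference could show there. The 4 harvests with at least 5 cells of each class gave -15.6 percentage points (p = 0.250, exact), and 4 harvests cannot go below 0.125.

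**Figure D2:**
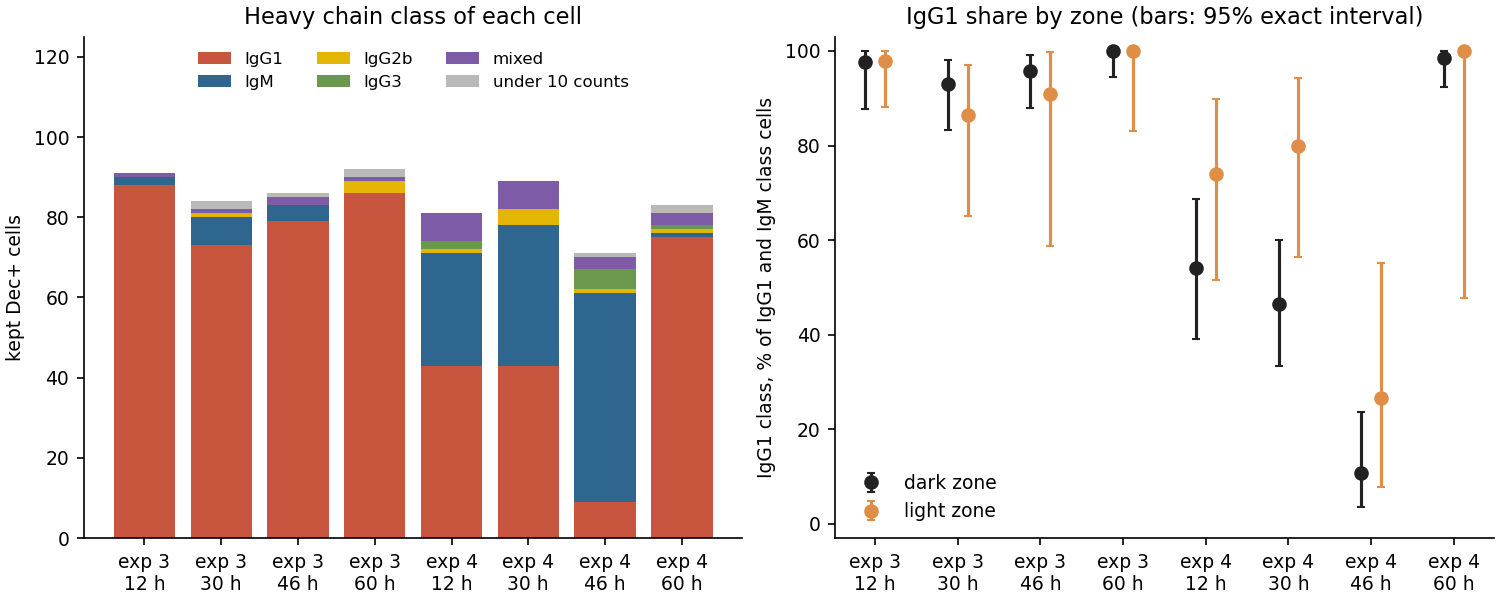
Left, number of kept Dec+ cells of each heavy chain class by experiment and time. Right, IgG1 class cells as a percent of IgG1 and IgM class cells in the dark zone (black) and light zone (orange) of each harvest, with 95% exact binomial intervals; the IgG1 share is lowest at 46 h in experiment 4 and lower in the dark zone at 12, 30 and 46 h of that experiment.

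The staining intensities recorded at the sort bear on the same point. CXCR4, the receptor that holds cells in the dark zone, had a median of 406 in IgG1 class and 567 in IgM class cells of experiment 4 at 12 h, in arbitrary units. The medians were 268 and 544 at 30 h, and 370 and 655 at 46 h. CD83, an activation marker of light zone cells, had medians of 402 in IgG1 class cells at 12 h, 426 at 30 h and 1090 at 46 h, and its log2 ratios of IgG1 to IgM medians were 1.28, 1.66 and 2.08. In the 30 h harvest of experiment 3 both orders were turned: 528 and 415 for CXCR4, and 380 and 1271 for CD83, with 7 IgM class cells. IgM class cells of experiment 4 thus had the higher median CXCR4 and the lower median CD83 at each of the 3 times, while those of experiment 3 did not.

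As log2 ratios of IgG1 to IgM medians, CXCR4 averaged -0.49 ± 0.60 and CD83 0.82 ± 1.74 (SD, n = 4 harvests). Neither passed the exact sign-flip permutation test over harvests (p = 0.250 and 0.500, adjusted p = 0.688 for both over 11 measures). The CXCR4 order at 12 h did not hold within plates, where 3 of 4 plates had the higher median in IgG1 class cells. At 30 h all 4 plates had the higher median CXCR4 in IgM class cells. At 46 h the only plate with enough cells had a log2 ratio of -0.02, against -0.82 for the whole harvest, so that this difference was hardly seen within a plate. The mean for CD83 was 1.67 without experiment 3 and 0.40 without the 46 h harvest, and that for CXCR4 ran from -0.78 without experiment 3 to -0.32 without the 30 h harvest of experiment 4. In dark zone cells alone the mean log2 ratio was -0.48 for CXCR4 and 0.59 for CD83. Neither passed there (p = 0.500 and 0.250, exact sign-flip permutation test over harvests of experiment 4). So few harvests cannot give a low p, and the zone marks go with the same 2 stains.

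**Figure D3:**
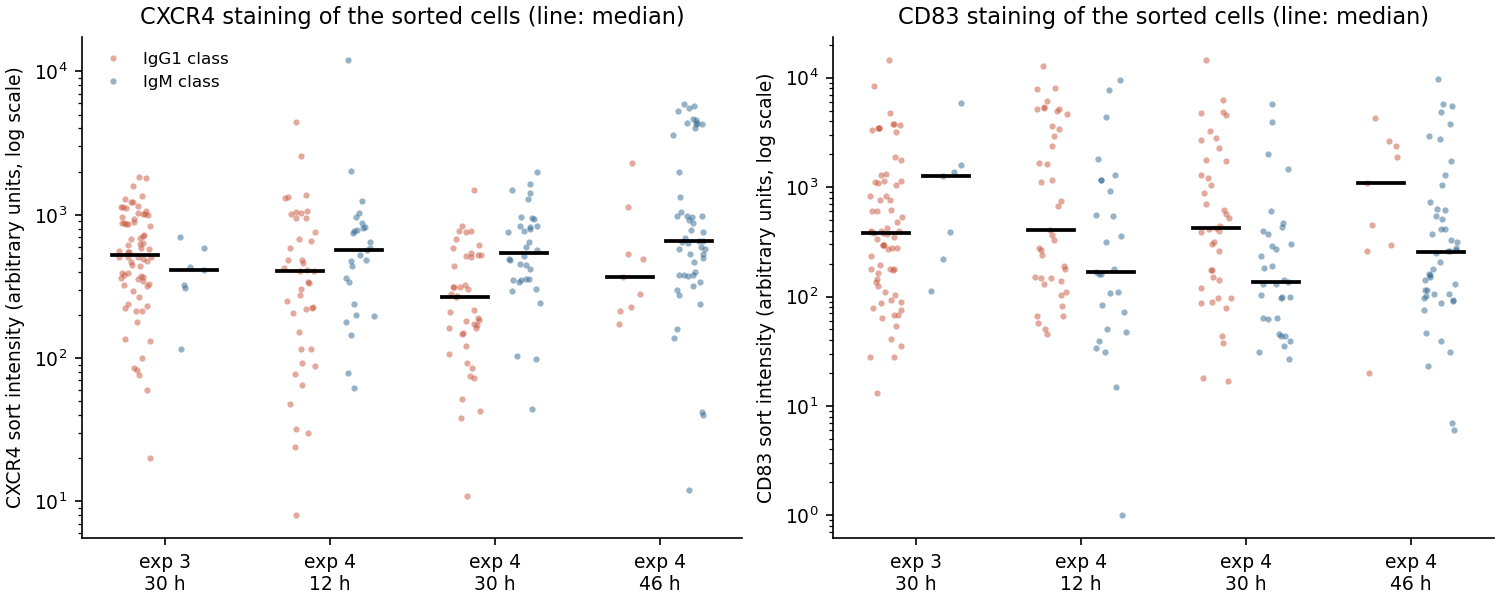
Staining intensity of CXCR4 (left) and CD83 (right) at the sort, in arbitrary units on a log scale, for each IgG1 (red) and IgM (blue) class cell of the 4 harvests compared; black lines are medians. In experiment 4 the IgM medians of CXCR4 lie higher (567, 544 and 655 against 406, 268 and 370), and the reverse holds for CD83.

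No cell cycle measure differed between the classes in the same direction in all 4 harvests. The authors' phase calls put 49.3% of IgG1 and 28.6% of IgM class cells in G1 in experiment 3 at 30 h. In experiment 4 these were 51.2% and 35.7% at 12 h, 27.9% and 25.7% at 30 h, and 11.1% and 23.1% at 46 h. The share in G2M was lower in IgG1 class cells in 3 of 4 harvests, with differences of -36.6, -14.8 and -3.21 percentage points, and higher by 12.2 at 30 h in experiment 4. The G2M score and the FUCCI reporter intensity were lower in IgG1 class cells in 3 of 4 harvests, and the S score in 2. The mean difference in G2M share was -10.6 percentage points, and -1.92 without experiment 3. None of these measures passed, nor did the total counts, the genes detected or the percent of mitochondrial reads. Adjusted p ran from 0.688 to 0.875 over 11 measures in exact sign-flip permutation tests. With 4 harvests this test cannot give a p below 0.125, so it could not have shown a difference.

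The load of heavy chain RNA per cell varied widely and was very high in a few cells. The 5 class genes took a median of 0.335% of all counts in IgG1 class and 0.471% in IgM class cells of experiment 3. In experiment 4 the medians were 0.293% and 0.482%. IgM class cells had the higher median in each of the 4 harvests compared, at 0.471% against 0.356% in experiment 3 at 30 h and 0.575% against 0.271%, 0.459% against 0.302% and 0.479% against 0.275% in experiment 4 at 12, 30 and 46 h. Because the rule used these counts, this is a description. In 11 cells the 5 genes took at least 10% of all counts: 7 IgG1 and 3 IgM class cells of experiment 3, and 1 IgG1 class cell of experiment 4.

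Of those 11 cells, 9 were marked as dark zone. Among all IgG1 or IgM class cells, 235 of 339 in experiment 3 and 223 of 286 in experiment 4 were so marked. The 30 h harvest of experiment 3 held 7 of the 11 cells. In that harvest 6 IgG1 class cells held 84.02% of all class counts of their class, so that sums over cells can rest on very few of them. The highest Ighm count, 42636, belonged to 1 of the 7 IgM class cells of that harvest, and the next had 1100. The same cell held 91.1% of the Iglc1 counts, 98.4% of the Iglc2 counts and 94.5% of the Xbp1 counts of these 7 cells. Xbp1 encodes a transcription factor of antibody secretion. The values of Iglc1, Iglc2 and Xbp1 in that sum are therefore mostly those of 1 cell. Without it the log2 ratio, IgG1 over IgM class, over the 4 pairs was 0.40 for Xbp1, 0.60 for Iglc1, -0.09 for Iglc2, -0.76 for Iglv3, -0.40 for Ighv1-72 and -0.17 for Mzb1, a plasma cell gene, against -0.35, -0.08, -1.56, -2.45, -0.99 and -0.45 with it. The sign of Xbp1 and of Iglc1 thus turned.

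Ighd, which encodes the IgD heavy chain and is spliced from the same precursor as Ighm, was found mostly in IgM class cells. It had counts in 27 IgM class cells (20.9%, 95% exact interval 14.3 to 29) and in 11 of 496 IgG1 class cells (2.22%, 1.11 to 3.93). In experiment 4 it had counts in 3 of 28 IgM class cells at 12 h, 11 of 35 at 30 h and 11 of 52 at 46 h. In IgG1 class cells of these harvests it had counts in 2 of 43, 1 of 43 and 0 of 9. Igha had counts in 30 IgG1 (6.05%) and 7 IgM class cells (5.43%), and Ighe in 31 (6.25%) and 9 (6.98%), so that both were present in few cells of either class.

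Most cells of both classes used a lambda light chain. Among cells with at least 10 light chain constant counts, 447 of 496 IgG1 class cells (90.1%) and 91.3% of IgM class cells had at least 60% of them in Iglc1, Iglc2 and Iglc3. Kappa, encoded by Igkc, held that share in 17 and 7 cells. Cells dominated by Iglc2 and Iglc3 numbered 44 of 496 (8.87%, 6.52 to 11.7) in the IgG1 class and 10 (7.87%, 3.84 to 14) in the IgM class. The pooled intervals of the 2 classes overlap for the lambda and for the Iglc2 and Iglc3 share, but they take cells as independent. IgG1 class cells came mostly from experiment 3 and IgM class cells mostly from experiment 4. Within harvests the Iglc2 and Iglc3 share went both ways. At 12 h of experiment 4 it was 25.6% in IgG1 and 7.14% in IgM class cells. It was 16.3% and 0% at 30 h, and 0% and 13.7% at 46 h. In experiment 3 at 30 h it was 1.37% and 14.3%, with 7 IgM class cells. No difference within harvests was tested.

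To ask which other RNAs differ between IgG1 and IgM class cells, counts were summed per harvest and class, and the classes were compared within harvests. Harvests with at least 5 cells of each class entered: experiment 3 at 30 h (73 IgG1 and 7 IgM class cells) and experiment 4 at 12 h (43 and 28), 30 h (43 and 35) and 46 h (9 and 52). The sums held from 1136581 to 15832449 counts, the smallest being the 7 IgM class cells of experiment 3. No gene of 9370 passed (edgeR quasi-likelihood test, Benjamini-Hochberg adjusted p under 0.05, 0% called). At an unadjusted p under 0.05 there were 77 genes higher (0.822%) and 60 lower (0.64%) in the IgG1 class, 1.46% in all. The median log2 ratio of all genes tested, other than heavy chain genes, was 0.14, and it was 0.76, 0.01, 0.00 and -0.25 in the 4 pairs in the order above. DESeq2 called 15 genes on the same sums (0.16%), 8 higher and 7 lower, and 6.76% had an unadjusted p under 0.05 by it.

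The values of the genes with the lowest p follow, although none of them passed in edgeR (adjusted p = 1.00 for each). Of the 15 DESeq2 calls, Syngr2, Cd86, Cd53, Mob3c, Hmgn2, Ighv1-72 and Ighd are described here, with DESeq2 adjusted p from 0.000989 to 0.0382. Ighv1-72 and Ighd are genes of the locus whose RNA set the class, so their values are a description only. Values are CPM, the counts of a sum scaled to a common library size, in the order experiment 3 at 30 h and experiment 4 at 12, 30 and 46 h. Syngr2 (chromosome 11, 117809668 to 117814283), a protein of vesicle membranes, had 231.5, 186.5, 238.8 and 270.5 CPM in the IgM class. In the IgG1 class it had 549, 482, 372 and 600.3 CPM. The groups did not overlap, and the log2 ratio was 1.10 ± 0.21 (SE, higher in 4 of 4 pairs). Of all genes tested 1.17% were higher in the IgG1 class without overlap of the 4 sums, and 0.619% were lower.

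Cd86 (chromosome 16, 36603869 to 36666081), a ligand for costimulation of T cells that is known to be high in the light zone, had 34.4, 170.3, 65.8 and 29.9 CPM in the IgM class. It had 219.6, 336, 223 and 79.7 CPM in the IgG1 class, with a log2 ratio of 1.69 ± 0.36. The groups overlapped, but each IgG1 sum was above the IgM sum of its harvest, as in 7.21% of all genes tested. In dark zone cells alone (3 pairs) the log2 ratio of Cd86 was -0.13 ± 1.58, and with sums per harvest and zone it was 0.34 ± 1.20. These errors are too wide to tell either value from 0 or from that of all cells. Cd53 (chromosome 3, 106759921 to 106790149), a tetraspanin of leukocytes, had 472, 1019.9, 634 and 763 CPM in the IgM class and 817, 1392, 934 and 1285 CPM in the IgG1 class. Its log2 ratio was 0.64 ± 0.15, and 0.66 in dark zone cells alone.

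Mob3c had 0.861 CPM in the IgM sum of experiment 3 and was at 0 in the 3 other IgM sums. Its IgG1 sums held 23.3, 13.8, 9.80 and 66.7 CPM, and no ratio is given for it. Among genes with lower values in the IgG1 class, Hmgn2, a nucleosome-binding protein, had 1486, 1907, 2096 and 3362 CPM in the IgM class and 1126, 1498, 1457 and 1992 CPM in the IgG1 class (-0.51 ± 0.13). Hmces, a sensor of abasic sites in DNA that is high in the dark zone, had 875, 851, 707 and 1098 CPM against 832, 503, 331 and 390.1 CPM (-0.86 ± 0.25). Ccnb2, a mitotic cyclin, had from 213 to 520.4 CPM against 139.6 to 233 CPM (-1.06 ± 0.28), and Atg4b, a protease of autophagy, from 86.7 to 169.5 CPM against 20.5 to 61.1 CPM (-1.49 ± 0.42).

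Ighv1-72 (chromosome 12, 115757984 to 115758461), a heavy chain variable gene, had 365, 373 and 352 CPM in the IgM class and 122.2, 160.6 and 154.2 CPM in the IgG1 class of experiment 4. In experiment 3 at 30 h its levels were far higher in both classes and close to each other, at 5009 and 5259 CPM. The log2 ratio was -0.99 ± 0.27 over the 4 pairs, and -0.40 ± 0.97 without the IgM class cell of the highest Ighm count. Reads of Ighv1-72 can come from the same RNA molecules as the class counts, whose load was higher in IgM class cells of experiment 4. Iglc1, the main lambda constant gene, stood at 32010.3 and 33154 CPM in experiment 3 and from 1985 to 2691 CPM in the 6 sums of experiment 4 (-0.08 ± 0.12). Iglc2 had 3194 CPM in the IgM sum of experiment 3, nearly all from the cell described above, and 509, 371 and 328 CPM in those of experiment 4. Its IgG1 sums had 442, 449, 399 and 31.2 CPM (-1.56 ± 0.65). Iglv3, a lambda variable gene, had 2484 CPM in that IgM sum and from 41.02 to 148.2 CPM in the others, against 2.37 to 110.3 CPM in the IgG1 class.

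**Figure D4:**
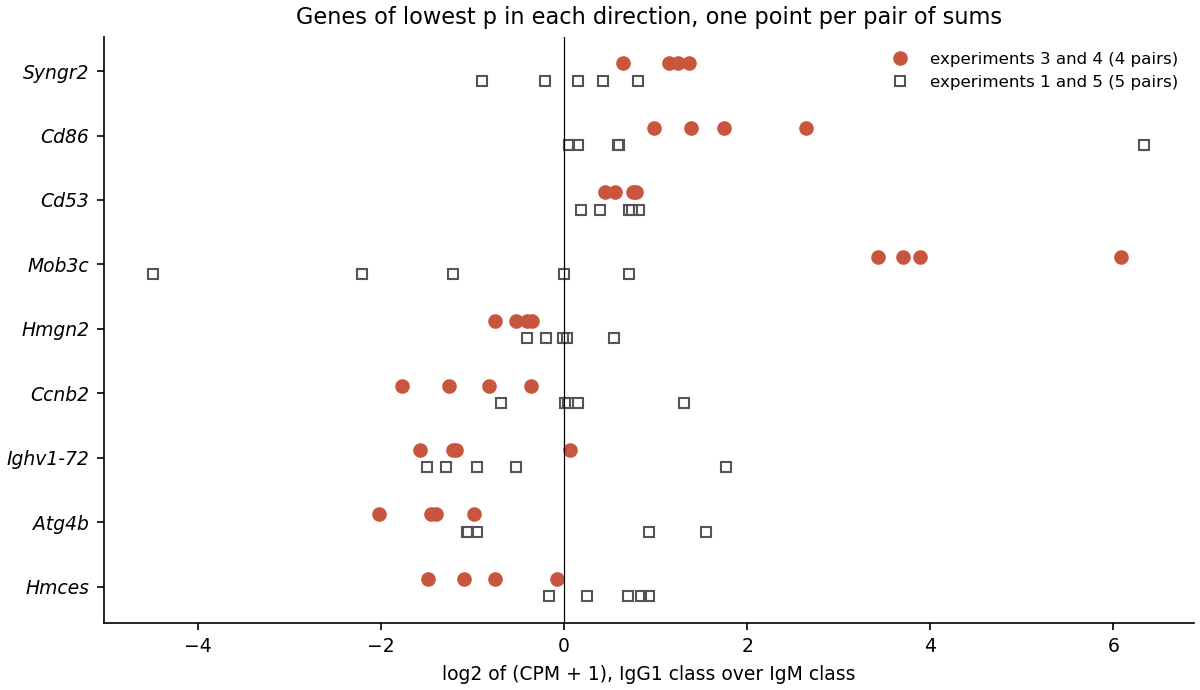
Log2 ratio of CPM plus 1, IgG1 over IgM class, for genes of the lowest p in each direction; filled circles are the 4 pairs of sums of experiments 3 and 4, open squares the 5 pairs of experiments 1 and 5. Cd53 lies above 0 in all 9 pairs and Cd86 too, while the other genes shown lie on both sides of 0 in experiments 1 and 5, or at it.

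Whether the class difference itself differed between experiments 3 and 4 was tested with an interaction term. A single gene of 9370 passed (0.0107%), Iglv2, a lambda variable gene, and 16.8% of genes had an unadjusted p under 0.05. Its difference of log2 ratios, experiment 4 minus experiment 3, was -9.37 ± 0.53 (edgeR adjusted p = 0.0338). It had 1001 CPM in the IgG1 and 2.58 CPM in the IgM sum of experiment 3, and 10781 counts of the former came from 1 cell. Without that cell the difference was -6.77 (adjusted p = 0.0828) and no gene passed. Experiment 3 enters this test with 1 pair.

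The genes of each class were next described by list: genes of the light and dark zone, of growth, of the cell cycle, of receptor signalling and of switching. None of the members of any list passed in edgeR, and DESeq2 called 2, Cd86 and Ighd, the latter of the locus the rule used. Counts and medians are therefore given beside those of all genes. Of all genes 57.8% had a log2 ratio above 0, with a median of 0.14. Of 19 dark zone genes tested 1 was above 0, Cxcr4, with a median of -0.36. The median was -0.17, -0.38, -0.32 and -0.67 in the 4 pairs. Besides Hmces, the lowest p was that of Lipc (-1.19 ± 0.47), with 81.8, 90.6, 80.3 and 140.6 CPM in the IgM class and 44.9, 21.3, 33.3 and 96.2 CPM in the IgG1 class.

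Of 27 light zone genes 20 were above 0 with a median of 0.41, and the median was 0.24, 0.90, 0.81 and -0.31 in the 4 pairs. The list of NF-kB and CD40 signalling, which conveys T cell help, shares members with the light zone list, among them Cd40, Cd83 and Cd86. Of its 20 genes tested 15 were above 0 (median 0.39). The lowest p among these after Cd86 was that of Cd83, with 1768, 1621, 731 and 655 CPM in the IgM class and 2091, 3136, 1520.2 and 599 CPM in the IgG1 class (0.53 ± 0.22). The zone makeup of the sums moved with these lists in experiment 4. Of zone-marked cells, 78.6%, 88.6% and 78.8% of IgM class cells were of the dark zone at 12, 30 and 46 h, against 60.5%, 62.8% and 55.6% of IgG1 class cells. In experiment 3 at 30 h the shares were 57.1% for the IgM and 73.97% for the IgG1 class. In dark zone cells alone the medians were -0.41 for dark zone, 0.12 for light zone and -0.10 for NF-kB and CD40 genes, against -0.30 for all genes. That fit has the 3 pairs of experiment 4 only, so that both the zone and the experiments differ from the fit of all cells. Sums per harvest and zone compared the classes within a zone, in 4 pairs that also come from experiment 4 only. Their medians were -0.28 for dark zone, 0.37 for light zone and 0.31 for NF-kB and CD40 genes, against -0.07 for all genes. The part of the zone makeup itself was not tested.

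Growth genes had medians above that of all genes. Of 29 genes of MYC and ribosome biogenesis 28 were above 0, with a median of 0.71 and pair medians of 1.04, 0.34, 0.16 and 0.71, against 0.76, 0.01, 0.00 and -0.25 for all genes. Eif4a1, an RNA helicase of translation initiation, had from 337 to 539.8 CPM in the IgM and from 500.3 to 973 CPM in the IgG1 class (0.62 ± 0.21). Hspe1, a mitochondrial chaperone, had a log2 ratio of 0.74 ± 0.28. Myc, the transcription factor induced by T cell help, had 7.74, 65.9, 29.7 and 48.4 CPM in the IgM class and 57.1, 190.8, 69.6 and 61.5 CPM in the IgG1 class (1.46 ± 0.57). All 15 glycolysis genes tested were above 0 (median 0.39), among them Ldha (0.60 ± 0.22) and Pkm (0.50 ± 0.19). Of 27 ribosomal protein genes 26 were above 0, but their median of 0.17 was near that of all genes, with Rplp1 at 0.38 and Rps6 at 0.30. Within the dark zone the medians were 0.26 for the MYC list, 0.01 for glycolysis and -0.16 for ribosomal proteins, against -0.30 for all genes. With sums per harvest and zone they were 0.25, 0.19 and 0.02, against -0.07 for all genes.

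Cell cycle lists went in different directions. The mitosis list shares Cdc20, Cenpa, Aurka and Plk1 with the dark zone list. Of 37 mitosis genes 5 were above 0 (median -0.25). An unadjusted p under 0.05 was found for 5, each lower in the IgG1 class, as for 0.64% of all genes. In dark zone cells alone the mitosis median was -0.41, against -0.30 for all genes. With sums per harvest and zone it was -0.16, against -0.07 for all genes. Nuf2, a kinetochore protein, had 141.1, 170.2, 193.7 and 256 CPM in the IgM class and 82.5, 77.6, 108.6 and 120.3 CPM in the IgG1 class, without overlap (-0.96 ± 0.28). It was lower in 4 of 4 pairs, as in 4.78% of genes. Of 35 genes of G1/S and replication 23 were above 0 (median 0.23), with pair medians of 1.55, -0.55, -0.39 and 0.18, so that experiment 3 stood apart. Tyms was at 0.82 ± 0.46 and Dtl at 1.00 ± 0.62. Ccnd3, which encodes cyclin D3, had 528, 602, 1016 and 912 CPM in the IgM class and 676, 459, 953 and 924 CPM in the IgG1 class (-0.03 ± 0.18). Ccnd2 ranged from 0.136 to 95.5 CPM and from 13.1 to 108.6 CPM (2.73 ± 1.97), and Cdk4 had a log2 ratio of 0.31 ± 0.27.

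Genes of switching were read from 36 members of a list on switch recombination, of which 24 were above 0 (median 0.22). H2afx, a histone marked at DNA breaks, was at -0.63 ± 0.24. Of 23 genes of the cytokine axis that directs switching 14 were above 0 (median 0.15). Il4ra, the receptor for interleukin 4, had 310.7, 268.7, 195.6 and 116.2 CPM in the IgM class and 242, 312, 269.9 and 362 CPM in the IgG1 class (0.48 ± 0.34). Tgfbr2 was at -1.06 ± 0.58.

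The B cell receptor list was near 0, with 14 of 30 genes above it and a median of -0.02. Cd79a, the signalling partner of both receptor classes, had from 895 to 1459.6 CPM in the IgM and from 854 to 1513 CPM in the IgG1 class (0.05 ± 0.18), and its partner Cd79b was at 0.13 ± 0.18. Inpp5d, which encodes the inhibitory phosphatase SHIP1, had 61.96, 117.3, 133.9 and 65.6 CPM in the IgM class and 189.9, 243, 199.5 and 134.1 CPM in the IgG1 class (1.06 ± 0.31), with its lowest IgG1 sum just above its highest IgM sum. Ms4a1, the gene of CD20, was at 0.31 ± 0.13. Of immediate early genes 3 of 7 were above 0 (median -0.19), and Egr2 had 0, 5.10, 0 and 0 CPM in the IgM class and 7.53, 22.5, 25.3 and 0 CPM in the IgG1 class.

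Lists of differentiation gave medians from -0.25 to 0.15. Of 27 genes of germinal center identity 7 were above 0 (median -0.25), with Bcl6, the master regulator of germinal center B cells, at 239, 218, 149.5 and 175.3 CPM in the IgM class and 358, 104.8, 143.3 and 127.4 CPM in the IgG1 class (-0.25 ± 0.33), and Spib at -0.41 ± 0.18. Of 18 memory and naive genes 8 were above 0 (median -0.18). Gpr183, a receptor that guides B cells out of follicle centers, had 0, 4.42, 10.3 and 0.272 CPM in the IgM class and 8.54, 38.7, 29.9 and 8.68 CPM in the IgG1 class, and Pdcd1lg2 from 0 to 18.3 and from 2.48 to 13.4 CPM. Of 13 plasma cell genes 6 were above 0 (median -0.06), with Mzb1 at -0.45 ± 0.18 and Xbp1 at -0.35 ± 0.18. Without the IgM class cell of the highest Ighm count 9 of 13 were above 0, with a median of 0.53. Of 25 chaperone genes of the endoplasmic reticulum 16 were above 0 (median 0.15), with Calr at 0.59 ± 0.25 and Pdia6 at 0.76 ± 0.34, and without that cell the median was 0.40.

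The other lists follow. MHC class II genes had a median of 0.10 (12 of 17 above 0; Ifi30 0.74 ± 0.27, H2-Oa 0.59 ± 0.26), apoptosis regulators -0.12 (10 of 21; Bcl2l1 1.42 ± 1.04) and oxidative phosphorylation genes 0.03 (10 of 20; Sdha -0.57 ± 0.20, Sdhb -0.38 ± 0.19). Bcl2 had at most 12.3 CPM in any sum. Interferon response genes had 0.06 (8 of 16; Irf7 1.34 ± 0.84, Ifi203 1.60 ± 1.14), migration receptors -0.23 (9 of 19; Rgs13 -1.09 ± 0.55) and mitochondrial transcripts 0.03 (7 of 13; mt-Nd2 0.49 ± 0.25, mt-Atp8 -0.31 ± 0.26). Light chain genes had -0.16 (2 of 8). Without the IgM class cell of the highest Ighm count the median of light chain genes was 0.19 (5 of 8 above 0), that of migration receptors 0.07 (10 of 19), that of interferon response genes 0.15 and that of mitochondrial transcripts -0.0033. Igkc had 359.7, 529, 478 and 441 CPM in the IgM class and 4932, 225, 198.7 and 109.3 CPM in the IgG1 class. The transcript Cxcr4 had from 5.16 to 71.2 CPM and from 9.47 to 52.4 CPM (0.02 ± 0.66), an error too wide to set beside the staining.

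**Figure D5:**
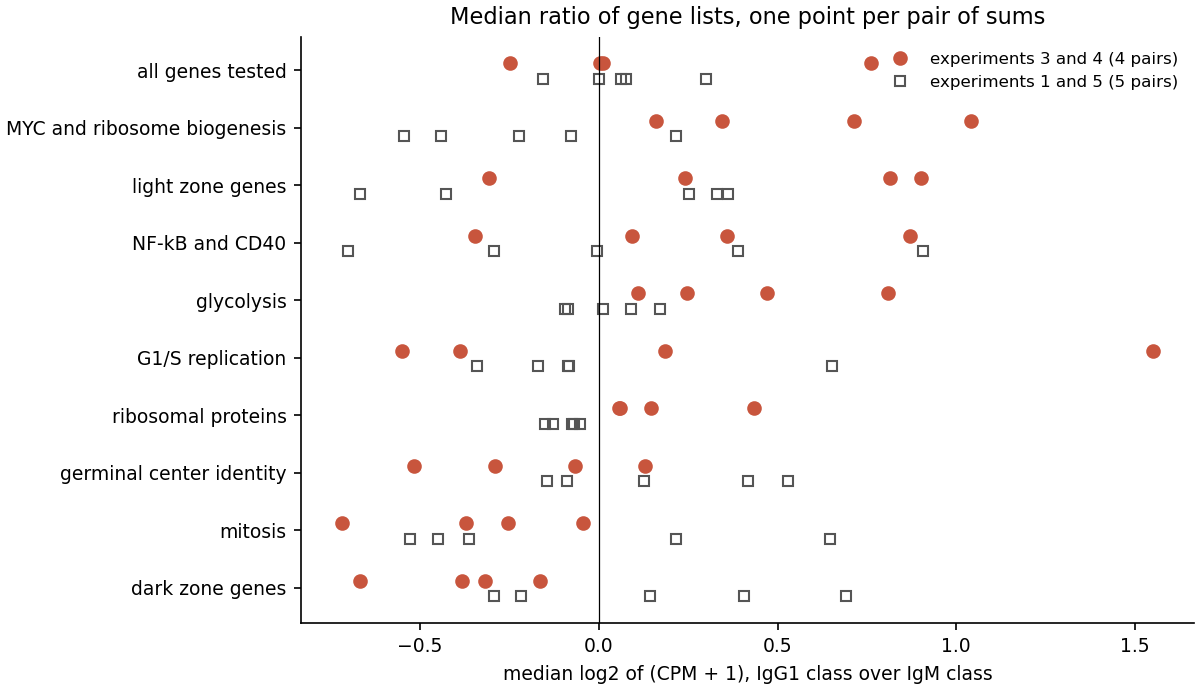
Median log2 ratio of CPM plus 1, IgG1 over IgM class, of gene lists in each pair of sums; filled circles are experiments 3 and 4 and open squares experiments 1 and 5. Dark zone and mitosis genes lie below 0, and MYC and glycolysis genes above 0, in all 4 pairs of experiments 3 and 4, and none of the 4 lists keeps its side of 0 in all 5 pairs of experiments 1 and 5.

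Markers of T cells, myeloid cells and stroma were low beside those of B cells, which summed to 9925 to 17030 CPM. Each of the 625 cells had counts of at least 2 of 6 B cell markers. Of 12 T cell markers, at least 5 had counts in 17 IgG1 and 2 IgM class cells, and the summed level ran from 184.8 to 484.5 CPM in IgM and from 67.8 to 271 CPM in IgG1 class sums, with Trbc1 at 0. Lck, which B cells can express, made up most of it in some sums, at 386 CPM in the IgM sum of experiment 3, and was at -0.43 ± 0.32, and Cd2 at -0.77 ± 0.85. Of 12 myeloid markers 9 were at 0 in all sums, Lyz2 and C1qa among them, and the summed level ran from 166.2 to 389.8 and from 107.3 to 440 CPM, mostly Cst3 (-0.44 ± 0.27) and little Cd68. Of 8 stromal markers 7 were at 0, leaving Cr2 (0.97 ± 0.70), which B cells express. Plasma cell markers summed to 2186 to 5237 CPM in IgM and 1617 to 5674 CPM in IgG1 class sums, and naive B cell markers to 244 to 597 and 150.7 to 578 CPM. Among the latter, Fcer2a, the gene of CD23, was at 0.29 ± 0.38 and Cd38 had from 0 to 10.7 and from 0 to 45.6 CPM. The part of these markers in the differences above was not tested.

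Cells that the class comparison had not used gave another view of the same genes. Experiment 1 held Dec+ light zone cells of 12 h (78.6% IgG1 class, with 31 IgM class cells) and dark zone cells of 30 h (31 IgG1 and 6 IgM class cells). Experiment 5 held cells of the genotypes WT (78 and 35), KO (48 and 45) and TA (27 and 74). The sample names of experiment 5 carry the gene name Ccnd3, and the labels do not say what KO and TA alter. The IgG1 share differed between these genotypes, so the classes were compared within each of them and within each time of experiment 1. Log2 ratios of these 5 pairs follow in the order experiment 1 at 12 h and 30 h, WT, KO and TA. Cd53 stood at 0.40, 0.74, 0.71, 0.81 and 0.19, and Cd86 at 0.59, 6.34, 0.05, 0.60 and 0.15. Both were above 0 in all 5 pairs, and the 6.34 rests on 6 IgM class cells. Syngr2 stood at 0.80, -0.90, 0.16, -0.21 and 0.42, and Hmgn2 at -0.41, 0.55, -0.19, 0.04 and -0.01. Neither kept its direction. Iglc2 stood at -1.51, -1.15, -0.52, -2.20 and -1.17, and Hmces, below 0 in experiments 3 and 4, at 0.84, 0.69, -0.16, 0.92 and 0.25. Iglc2 was thus below 0 in all 5 pairs. The share of all genes that kept a single direction in these 5 pairs was not counted. The common direction of Cd53, Cd86 and Iglc2 there is therefore a description only. Over their 5 pairs of sums no gene of 9301 passed (edgeR quasi-likelihood test, 0% called, 2.95% at an unadjusted p under 0.05), in a fit added after the data were seen.

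The list medians of experiments 3 and 4 did not hold across these pairs. MYC and ribosome biogenesis genes had medians of -0.22, -0.55, -0.08, -0.44 and 0.22 in the same order, and -0.23 in the fit of the 5 pairs. Dark zone genes had 0.41, 0.14, -0.22, 0.69 and -0.29, and 0.20 in that fit. Both fitted medians had the opposite sign to that in experiments 3 and 4. Mitosis genes had -0.36, -0.53, -0.45, 0.65 and 0.22 (fit -0.11), light zone genes 0.36, 0.33, 0.25, -0.67 and -0.43 (fit 0.06), and glycolysis genes 0.01, 0.09, 0.17, -0.09 and -0.09 (fit 0.01). For all genes these medians were 0.08, 0.30, 0.06, -0.0004 and -0.16 (fit 0.07). Ighd stood at -2.14, 3.22, -2.98, -2.86 and -3.78, above 0 only in the dark zone cells of experiment 1. In experiment 5 the IgG1 share was 65.8% in dark and 75.7% in light zone cells of WT, 54.3% and 50% in KO, and 23.2% and 42.1% in TA.

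Over all 9 pairs of sums of experiments 1, 3, 4 and 5, 18 of 8971 genes (0.201%) were higher and 10 (0.111%) lower in the IgG1 class in every pair. These genes were chosen after their values were seen. Random signs in 9 pairs would give counts of that order, so a place among these genes is a description only. Cd53 was among the former, with ratios from 0.19 to 0.81, and so was Cd86, and Lck was among the latter. Xbp1 was too, but its ratio in the pair of experiment 3 rests mostly on 1 IgM class cell, and over the 4 pairs of experiments 3 and 4 it was 0.40 without that cell. None passed in a fit of the 9 pairs (0 of 9233 genes, with 202 at an unadjusted p under 0.05, edgeR).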

How the data were processed

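Per the labels' protocols, single cells were index-sorted into 96-well plates and sequenced by SmartSeq2. The deposited tables hold expected counts per gene and cell, and the submitters' processing notes name STAR 2.6, RSEM 1.3.1, Seurat 3.1.4 and mm10. The deposited cell tables give the authors' S and G2M score, their percent of mitochondrial reads, their phase calls and zone flags, and the sort intensity of FUCCI, CXCR4 and CD83. The combined table sets some genes to 0 within an experiment and lacks genes named Rik. Its values of Ighg2c and Ighg3 differ from those of the tables per plate in experiment 3. Classing the cells from the tables per plate changed the class of 0 cells. In it 255 columns matched no sample by name and were not used. Kept cells of experiment 3 held 2156 to 443196 counts and those of experiment 4 held 10662 to 557857; reads without molecular identifiers are not independent molecules.

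Expected counts were summed per harvest and class (at least 5 cells of each class) and rounded. The 5 class genes were left out of the library sizes and the test. The test was edgeR's quasi-likelihood F test (edgeR 4.0.16, R 4.3.3) after filterByExpr and TMM scaling, with the harvest as block, since both classes come from the same plates and harvests; DESeq2 1.42.0 and limma 3.58.1 were alternatives. The block pairs sums of the same harvest and not replicate numbers, which the labels do not give. Ratios of single pairs are on the log2(CPM + 1) scale. SE is the log2 ratio divided by the root of the F statistic. Shares have 95% Clopper-Pearson intervals, and a share of 0 allows up to 3 counts of the total. Share and staining tests permuted signs over harvests, or times within experiments. The scripts were tested on simulated data.

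The members, the 32 gene lists and the rule for named genes were chosen with earlier results of these data known. The rule names the 5 genes of lowest p in each direction where fewer pass, up to 2 members of each list by lowest p, and a set of genes fixed by name; Iglv2 was added after its values were seen. Results for 3 of the genes this rule names are not reported here.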

Additional observations from a re-analysis of the deposited data

Results flagged for a closer look

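In 19.7% of the groups of 4 sums looked at, 28 in all, there was a sum far from the other 3 by Dixon's test, where chance gives about 1 in 20. Most were the sums of experiment 3 at 30 h. In its IgM class these were Mob3c at 0.861 CPM, Ighv1-72 at 5009, Iglc2 at 3194, Iglv3 at 2484, Xbp1 at 914, Ccnd2 at 95.5, Irf7 at 3.44, Cst3 at 389.8, Iglc1 at 32010.3 and Ighe at 166.9 CPM. In its IgG1 class they were Ighv1-72 at 5259 CPM, Xbp1 at 815, Ms4a1 at 1430, Cst3 at 427, Bcl6 at 358, Igkc at 4932 and Iglc1 at 33154 CPM.

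In experiment 4 at 12 h the sums that stood apart were Egr2 at 5.10 and Pdcd1lg2 at 18.3 CPM in the IgM class, and Myc at 190.8, Bcl2 at 6.63, Pkm at 714 and Ighd at 24.7 CPM in the IgG1 class. At 46 h they were Lipc at 140.6 CPM in the IgM class, and Iglc2 at 31.2, Hspe1 at 480.02, Irf7 at 170.4 and Ighe at 56.01 CPM in the IgG1 class, a sum of 9 cells.

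The class difference of Iglv2 differed between experiments by -9.37 on the log2 scale (edgeR interaction term), and it did not pass without the IgG1 class cell that held most of its counts in experiment 3.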

How the results depend on the processing

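The count of 0 called genes was the same in every alternative that could be fitted except DESeq2, which called 15; the cause was not tested. With no replicate block, that is without pairing the sums of a harvest, 0 genes were called and 78 had an unadjusted p under 0.05. For the difference between experiments DESeq2 called 1705 genes, against 1 by edgeR and 0 without the cell of highest Iglv2 count, an alternative chosen after seeing the data; experiment 3 has 1 pair there. Fits of the light zone alone and without experiment 4 could not be made, since 1 pair is left. Leaving out 1 harvest at a time, the mean slope of the IgG1 share ran from -0.634 to 0.707 percentage points per h, the S score difference from -0.133 to 0.237 and the difference in genes detected from -133.5 to 234.3. In dark zone cells alone the S score difference was -0.0949, that in genes detected -441 and that in the percent in S -2.29. Of 70 named genes, 55 changed sign in at least 1 alternative. Sums of 7 and 9 cells limit the precision in experiment 3 at 30 h and experiment 4 at 46 h. Without 1 harvest the dark minus light zone difference ran from -9.39 to -3.64 percentage points.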
